A study of Homo sapiens with 6 samples.

Results

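The 41 genes described here encode matrix and cell surface metalloproteinases of the MMP, ADAM and ADAMTS families, the inhibitors of these enzymes, and parts of the plasminogen activator system. They were taken by name from the 24462 gene symbols counted in the series. The members were chosen by their gene family with the counts and fold changes of this same comparison already known, so their values are a description. Where a member is said to be called, this states only on which side of the threshold it lay in the fit across all genes, and is not independent evidence. The study followed early colorectal cancer development after loss of APC, the Wnt pathway suppressor that is often the first gene lost in that disease. Its bulk RNA sequencing compared 1CT, an immortalized human colon epithelial cell (HCEC) line labelled wild type, with 1CT-A, the version of it in which wild type APC was depleted (labelled APC KD), with 3 libraries for each cell line. Both lines share the manipulation of the telomerase gene hTERT, were left untreated, and grew in DMEM and M199 medium with low serum, EGF, hydrocortisone, insulin, transferrin and sodium selenite. How APC was depleted in the sequenced 1CT-A cells, and whether either line is a single clone, is not given in the sources used here. The labels number the replicates of each line without saying that they came from separate cultures, so the spread between them may be technical.

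Metalloproteinases are zinc enzymes that cut collagens, proteoglycans and cell surface proteins, and most are made as inactive precursors. The TIMPs block their active site, and the balance between the enzymes and the TIMPs sets how fast matrix turns over. Urokinase and tissue plasminogen activator turn plasminogen into plasmin, which cuts fibrin and can activate several pro-MMPs, and serpins stop both activators. In the colon these systems act in wound repair and in the invasion of tumours, and MMP7 is a known target of the Wnt pathway.

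Each library was counted from the 3′ ends of RNA (QuantSeq), and levels are given as counts scaled to the library's total count (CPM), which are not divided by gene length and are compared only between libraries. The totals were 7788679 to 8452258 counts in 1CT and 11158108 to 12602988 in 1CT-A, so that 3 counts, taken as the limit of detection, equal 0.355 to 0.385 CPM in 1CT against 0.238 to 0.269 CPM in 1CT-A. APC itself stood at 46.6 ± 2.75 CPM in 1CT and 31.9 ± 2.21 CPM in 1CT-A (SD, n = 3), a log2 fold change of -0.58 (SE 0.09, adjusted p = 0.000176 with edgeR's quasi-likelihood test), and the libraries of the lines did not overlap. The labelled cell type was checked against 8 epithelial markers, and most of them, the defining EPCAM, CDH1, VIL1 and CDX2 included, were absent or nearly so. EPCAM and VIL1 had 0 counts in every library, CDH1 had at most 4, KRT20 and CDX2 at most 1, and KRT19 had 20, 27 and 34 counts in 1CT and 0 in all 1CT-A libraries. KRT8 had 4 to 14 counts in 1CT and 0 to 8 in 1CT-A. KRT18 was counted in every library, at 9.94 to 13.2 CPM in 1CT against 3.23 to 7.02 CPM in 1CT-A, and made up most of the list's sum. The summed level of this list was 13.4 to 17.4 CPM in 1CT against 3.23 to 7.20 CPM in 1CT-A. All 8 fibroblast or mesenchymal markers were counted in every library. Their summed level was 4664 to 5656 CPM in 1CT against 4301 to 4605 CPM in 1CT-A. In the same test 2 of them were higher and 4 lower in 1CT-A, or 75%, where 51.0% of all genes tested were called. COL3A1 (log2 fold change 2.37, SE 0.18) and DCN (0.30, SE 0.10) were higher, and VIM, COL1A1, PDGFRB and THY1 were lower. The part of these markers in the results below was not tested. The lines are bulk samples, in which fewer cells of a type and less RNA per cell cannot be told apart.

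Of the 41 members, 29 had enough counts to enter the fit across all genes and 12 did not. Among the 29, an adjusted p under 0.05 called 7 higher and 12 lower in 1CT-A, which is 65.5% of them, where 51.0% of all 12514 genes tested were called. By direction, 24.1% of these members were called higher and 41.4% lower, where the shares over all genes were 25.0% and 26.0%. The CPM values of the 2 lines did not overlap for 21 of the 29, or 72.4%, where the share over all genes was 59.7%. Of these 21, 8 were higher and 13 lower in 1CT-A, where 31.8% and 27.9% of all genes were apart in those directions. The median log2 fold change of 1CT-A over 1CT was -0.14 for the 29 members and -0.01 for all genes tested. The members were picked with this contrast known, so nothing is read from these shares. Those called higher were RECK, MMP2, ADAM10, ADAMTS5, ADAMTS9, PLAU and PLAT. Those called lower were TIMP1, TIMP2, TIMP3, TIMP4, MMP19, MMP24, ADAM12, ADAM15, ADAMTS2, ADAMTS6, ADAMTS7 and SERPINE2.

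**Figure D1:**
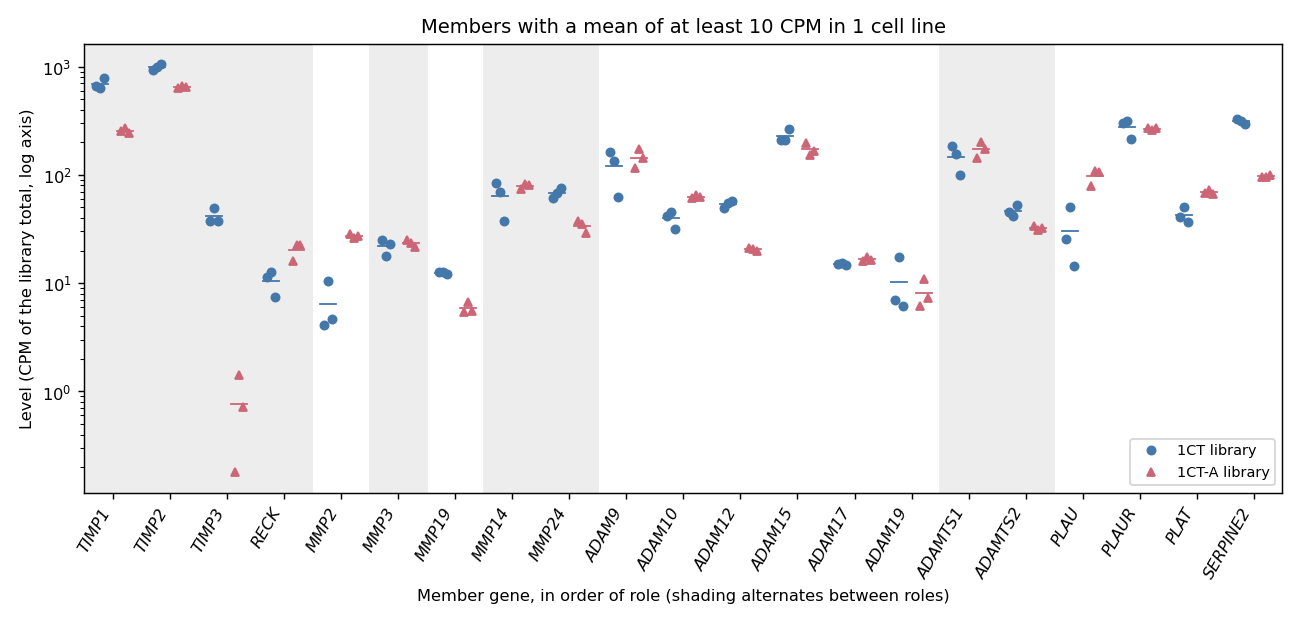
Level of the 21 members with a mean of at least 10 CPM in either line, on a log axis of CPM of the library total. Each circle is a 1CT library, each triangle a 1CT-A library, and the short line is the mean of 3 libraries. TIMP3 lies at 37.6 to 49.5 CPM in 1CT and at no more than 1.40 CPM in 1CT-A, while MMP2, PLAU and PLAT lie higher in 1CT-A.

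All 4 TIMPs were lower in 1CT-A, and the membrane-anchored inhibitor RECK was higher. TIMP1, a soluble inhibitor of most MMPs, stood at 662, 638 and 778 CPM in the 1CT libraries and at 253, 271 and 242 CPM in the 1CT-A libraries. All 3 values of 1CT-A lay far below the lowest of 1CT, with a log2 fold change of -1.48 (SE 0.09). TIMP2, which blocks MMPs and also helps MMP14 to activate pro-MMP2 at the cell surface, had 921, 991 and 1047 CPM in 1CT against 627, 665 and 643 CPM in 1CT-A. The groups were apart here too, by a smaller step (log2 fold change -0.65, SE 0.07).

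TIMP3, the TIMP that stays bound to the matrix and also blocks ADAM17 and several ADAMTS enzymes, had the largest fold change of the 29 members in the fit. The counts were 318, 410 and 295 in 1CT and 2, 16 and 9 in 1CT-A, or 41.7 ± 6.79 CPM against 0.766 ± 0.614 CPM (SD, n = 3). The log2 fold change was -5.78 (SE 0.28), and ran from -6.48 to -5.34 when 1 library was left out, with the lowest value without 1CT-A replicate 2, the 1CT-A library with the most TIMP3 counts. TIMP4 was counted far less, at 4.11 to 5.65 CPM in 1CT against 2.19 to 3.94 CPM in 1CT-A. Its log2 fold change of -0.66 (SE 0.26) lost its call with library size as the only scaling, with DESeq2, and without 1CT replicate 1, 1CT replicate 3, 1CT-A replicate 2 or 1CT-A replicate 3. RECK, a glycolipid-anchored inhibitor of MMP2, MMP9 and MMP14, had 11.4, 12.6 and 7.45 CPM in 1CT and 16.0, 22.5 and 22.3 CPM in 1CT-A. Every 1CT-A library was above every 1CT library, with a log2 fold change of 0.91 (SE 0.18).

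The 4 TIMP genes together took 1626 to 1869 CPM of a 1CT library and 885 to 940 CPM of a 1CT-A library. Within those counts TIMP1 made up 37.9% to 41.6% in 1CT and 27.2% to 28.8% in 1CT-A. TIMP2 took 56.0% to 58.9% in 1CT and 70.8% to 72.3% in 1CT-A, so its share was larger in 1CT-A although its level was lower. TIMP3 held 2.03% to 2.94% of the TIMP counts in 1CT and 0.0203% to 0.149% in 1CT-A. TIMP1, TIMP3 and TIMP4 lie within the synapsin genes SYN1, SYN3 and SYN2 on the opposite strand. The synapsins gave 12 to 26, 0, and at most 2 counts per library, where TIMP1 gave 2823 to 6058.

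The promoters of TIMP3 and RECK are shown because TIMP3 was the inhibitor furthest below its 1CT level and RECK the one above it. Their CG pairs are marked, since these are the letters at which DNA methylation is set. Each is the stretch of 120 bases directly before the start in RefSeq on GRCh38.p14, plus strand, at chr22:32801585-32801704 for TIMP3 and chr9:36036793-36036912 for RECK, with CG pairs in capitals.
TIMP3: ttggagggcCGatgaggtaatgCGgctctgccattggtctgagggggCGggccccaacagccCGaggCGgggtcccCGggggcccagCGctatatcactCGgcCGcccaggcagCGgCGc
RECK: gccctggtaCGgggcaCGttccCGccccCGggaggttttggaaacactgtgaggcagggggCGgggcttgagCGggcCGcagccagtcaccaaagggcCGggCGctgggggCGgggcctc
The TIMP3 stretch holds 11 CG pairs and the RECK stretch 10. In the 250 bases before the start, TIMP3 had 26 CG pairs and RECK 12, where the median was 21.5 over the 26 promoter windows of the members and 11.0 over all 35116 windows of the table. These 2 promoters were picked by their fold changes and do not stand for the other members. Members called lower ran from 6 CG pairs at a start of SERPINE2 to 40 in ADAMTS2, with 12 in TIMP1. Of those called higher, ADAM10 had 25 and the 2 starts of PLAU had 4 and 24. The windows cover 24 of the 41 members, and methylation was not measured in these libraries.

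Most of the 11 secreted MMPs had too few counts for the fit, and of the 3 that entered it MMP2 was called higher, MMP19 lower and MMP3 neither. MMP2, gelatinase A, which cuts denatured collagen and the collagen of basement membranes, had 4.14, 10.4 and 4.62 CPM in 1CT and 28.6, 26.1 and 27.3 CPM in 1CT-A. The 1CT-A libraries were close together and all above 1CT, in which replicate 2 was more than 2 times the others. The log2 fold change was 2.06 (SE 0.23) and ran from 1.81 to 2.60 when 1 library was left out, with the highest value without 1CT replicate 2. MMP9, gelatinase B, had at most 1 count in any library.

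MMP3, stromelysin 1, which cuts proteoglycans and activates other pro-MMPs, stood at 25.1, 17.9 and 23.1 CPM in 1CT and 25.0, 23.3 and 21.7 CPM in 1CT-A. The lines overlapped and MMP3 was not called (log2 fold change 0.04, SE 0.13). MMP19, an enzyme of basement membrane proteins, had 12.7, 12.6 and 12.2 CPM in 1CT and 5.47, 6.67 and 5.47 CPM in 1CT-A, which did not overlap (log2 fold change -1.13, SE 0.15). An exon of MMP19 overlaps the opposite-strand pseudogene TMEM198B, which gave 41 to 57 counts in 1CT and 24 to 45 in 1CT-A, and the strand used in counting is not given in the sources used here, so the MMP19 value is uncertain.

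The other secreted MMPs were at or near the limit of detection. MMP13, collagenase 3, had 0 counts in every library, and MMP7, MMP10 and MMP12 had at most 2. MMP1, interstitial collagenase, had 3, 5 and 0 counts in 1CT and 13, 8 and 21 in 1CT-A, or 0.320 against 1.18 CPM on average, and the lines did not overlap although MMP1 had too few counts for the fit. MMP28, epilysin, had at most 1 count in 1CT and 3, 6 and 6 in 1CT-A. Its mean CPM in 1CT-A was 1.15-fold the mean 1CT limit of 3 counts per library. Replicate 1 of 1CT-A was itself at that limit of 3 counts. MMP11, stromelysin 3, went the other way, with 6, 9 and 3 counts in 1CT and 4, 0 and 3 in 1CT-A. Its mean was 0.727 against 0.199 CPM. The CPM values of the lines did not overlap, but only narrowly, at 0.385 CPM in 1CT replicate 3 against 0.358 CPM in 1CT-A replicate 1. The counts themselves overlapped, at 3 and 4 in these libraries, and the 1CT-A libraries had the larger totals. MMP11 too had too few counts for the fit. The 11 secreted MMPs together summed to 40.3 to 42.9 CPM in 1CT against 57.3 to 61.2 CPM in 1CT-A. Without MMP2 the other 10 summed to 32.5 to 38.8 CPM in 1CT against 30.0 to 32.6 CPM in 1CT-A, so the higher sum in 1CT-A was that of MMP2.

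MMP7 is the member with letters of both an AP-1 site and a TCF site in its promoter window, and the stretch around its AP-1 letters is therefore shown. It lies 67 bases before the start at chr11:102530783-102530839 on the minus strand of GRCh38.p14 (RefSeq), with the AP-1 letters in capitals.
MMP7: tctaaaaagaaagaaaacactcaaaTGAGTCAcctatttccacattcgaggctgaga
MMP7 itself was at 0 counts in 5 libraries and at 1 in the other. The AP-1 letters TGAGTCA, which read TGACTCA on the other strand, were in 2 of the 26 member windows (7.69%), those of MMP7 and PLAUR, and in 4.2% of all windows. The TCF letters CTTTGAA or CTTTGAT, and likewise CTTTGTA or CTTTGTT, on either strand, were searched after the data were seen. They were in 3 member windows (11.5%), those of RECK, MMP7 and an alternative start of PLAU, and in 12% of all windows.

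Among the 5 membrane-type MMPs, MMP24 was lower in 1CT-A and MMP14 and MMP16 were not called. MMP24, the fifth membrane-type MMP, had 61.8, 67.9 and 75.4 CPM in 1CT and 37.7, 35.2 and 29.0 CPM in 1CT-A. The groups were well apart (log2 fold change -1.05, SE 0.11). MMP14, which activates pro-MMP2 and cuts fibrillar collagen at the cell surface, had 84.9, 69.4 and 37.7 CPM in 1CT and 74.3, 82.1 and 81.4 CPM in 1CT-A. The 1CT values spanned those of 1CT-A, with a log2 fold change of 0.27 (SE 0.19). It was 0.52 without 1CT replicate 1, where MMP14 was called, and 0.02 without 1CT replicate 3, where the difference was gone. MMP16, also an activator of pro-MMP2, was counted at 2.48 to 2.70 CPM in 1CT against 2.46 to 4.05 CPM in 1CT-A (log2 fold change 0.30, SE 0.27). MMP15 had 5 to 15 counts and MMP17 2 to 14 in a library, too few for the fit. The 5 genes summed to 118 to 151 CPM in 1CT against 115 to 121 CPM in 1CT-A.

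The ADAMs, which shed growth factors, cytokines and receptors from the cell surface, were split. ADAM10, the sheddase that cuts Notch receptors and E-cadherin, had 41.4, 45.8 and 31.7 CPM in 1CT and 61.7, 65.2 and 62.3 CPM in 1CT-A. All 1CT-A libraries were higher (log2 fold change 0.63, SE 0.11). ADAM12, an enzyme that sheds the EGF receptor ligand HB-EGF, had 49.9, 55.4 and 57.5 CPM in 1CT and 21.0, 20.9 and 19.9 CPM in 1CT-A, all lower (log2 fold change -1.44, SE 0.09). ADAM15, a sheddase that also binds integrins, had 210.4, 208 and 263 CPM in 1CT and 197, 152 and 166 CPM in 1CT-A. The step was small and the lines did not overlap (log2 fold change -0.44, SE 0.11).

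The other 4 ADAMs were not called. ADAM17, the sheddase of TNF and of EGF receptor ligands, had 14.9, 15.3 and 14.8 CPM in 1CT and 16.0, 17.5 and 16.3 CPM in 1CT-A. Its 1CT-A values were all higher by a narrow margin (log2 fold change 0.11, SE 0.12). ADAM9, a sheddase of several surface proteins, had 164, 134 and 62.0 CPM in 1CT and 115, 174 and 142 CPM in 1CT-A, which overlapped (log2 fold change 0.22, SE 0.24). ADAM19, a meltrin that cuts neuregulin, had 6.98, 17.5 and 6.16 CPM in 1CT and 6.18, 11.0 and 7.30 CPM in 1CT-A, and its log2 fold change of -0.37 (SE 0.33) turned to 0.27 without 1CT replicate 2. ADAM8 had 3 to 14 counts in a library (log2 fold change -0.14, SE 0.48). Exons of ADAM9, ADAM17 and ADAM19 overlap the opposite-strand genes TM2D2, IAH1 and CYFIP2, which were counted as well, so these 3 levels are uncertain. The 7 ADAMs summed to 437 to 488 CPM in 1CT against 415 to 442 CPM in 1CT-A.

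**Figure D2:**
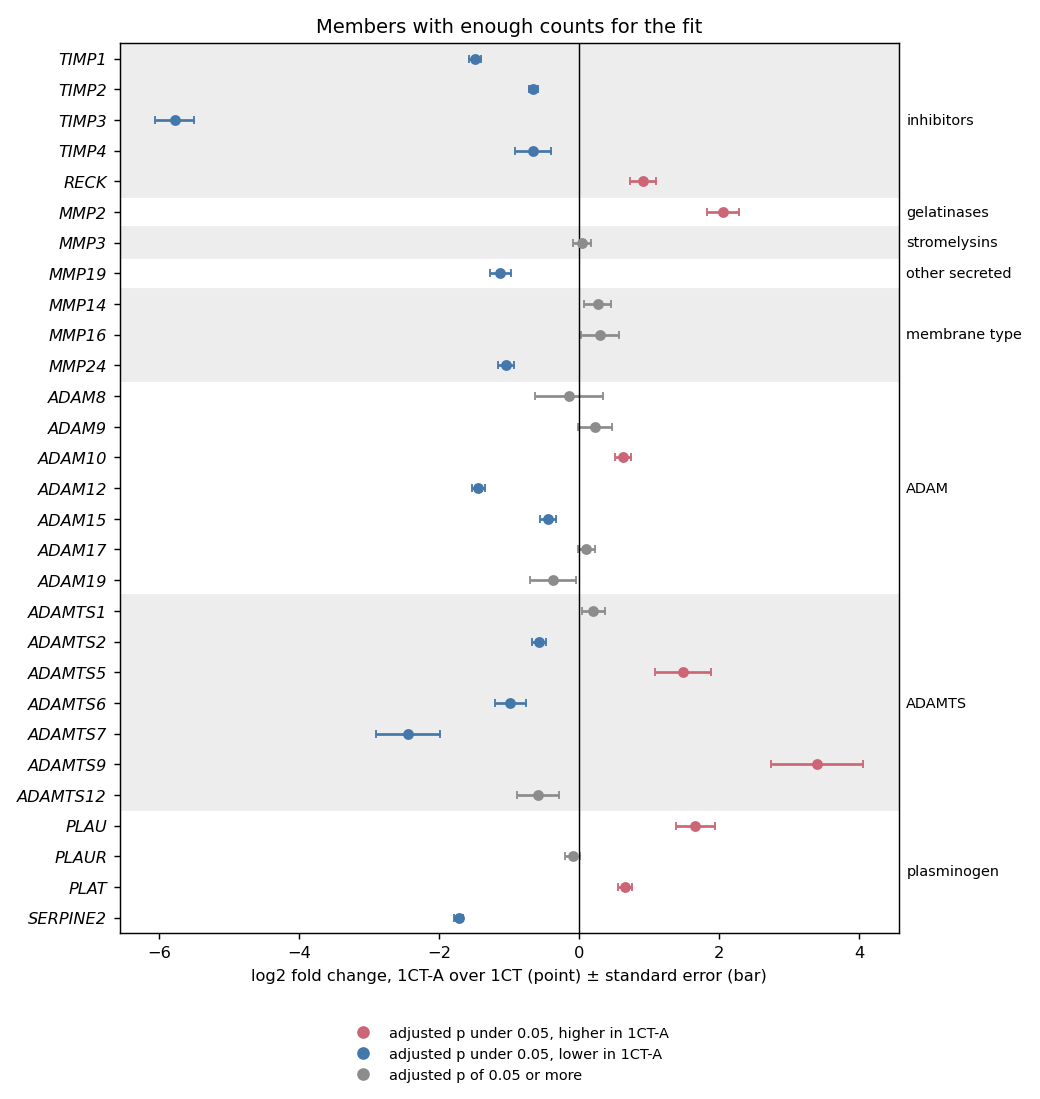
Log2 fold change of 1CT-A over 1CT for the 29 members with enough counts, in order of role, with bars of 1 standard error. Positive values are higher in 1CT-A and colour marks the call across all genes. The TIMPs lie left of 0 and RECK, MMP2, ADAMTS9, PLAU and PLAT right of it.

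ADAMTS enzymes moved in both directions. ADAMTS1, which cuts the proteoglycans versican and aggrecan, had 183, 155 and 100.4 CPM in 1CT and 144, 201 and 174 CPM in 1CT-A. These overlapped, and ADAMTS1 was not called (log2 fold change 0.20, SE 0.17). ADAMTS2, the enzyme that removes the amino-terminal propeptide of procollagen, had 45.6, 41.5 and 53.2 CPM in 1CT and 33.8, 31.2 and 32.0 CPM in 1CT-A, all lower (log2 fold change -0.57, SE 0.11).

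The other 6 were counted below 10 CPM. ADAMTS5, an aggrecanase, had 8, 44 and 12 counts in 1CT and 68, 89 and 109 in 1CT-A. Its log2 fold change of 1.49 (SE 0.40) ran from 1.08 to 2.56 when 1 library was left out, with the highest value without 1CT replicate 2, and its call was lost with DESeq2. ADAMTS9, which cuts versican and aggrecan, had at most 2 counts in 1CT and 19, 12 and 20 in 1CT-A. Its mean CPM in 1CT-A was 3.94-fold the mean 1CT limit of 3 counts per library. ADAMTS7, a protease that cuts cartilage oligomeric matrix protein, had 13 to 15 counts in 1CT and 2 to 6 in 1CT-A (log2 fold change -2.44, SE 0.46). ADAMTS6 stood at 6.16 to 9.76 CPM in 1CT against 3.65 to 4.92 CPM in 1CT-A (log2 fold change -0.98, SE 0.22). ADAMTS12 had 2.29 to 2.82 CPM in 1CT against 1.23 to 2.06 CPM in 1CT-A, which did not overlap and was not called (log2 fold change -0.58, SE 0.30). ADAMTS4, another aggrecanase, had 4 to 13 counts and did not enter the fit. The 8 genes summed to 172 to 242 CPM in 1CT against 192 to 248 CPM in 1CT-A.

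In the plasminogen system both activators were higher in 1CT-A and the serpin SERPINE2 was lower. PLAU, urokinase, had 25.8, 50.3 and 14.4 CPM in 1CT and 78.4, 109.5 and 106.7 CPM in 1CT-A. Every 1CT-A library was above the highest of 1CT, where the libraries differed 3.50-fold among themselves. The log2 fold change was 1.66 (SE 0.28) and ran from 1.35 to 2.24 when 1 library was left out. PLAT, tissue plasminogen activator, had 40.8, 50.1 and 36.7 CPM in 1CT and 67.8, 72.1 and 66.9 CPM in 1CT-A (log2 fold change 0.66, SE 0.10).

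PLAUR, the receptor that holds urokinase at the cell surface, had 303, 312 and 214 CPM in 1CT and 269, 259 and 272 CPM in 1CT-A. The 1CT values lay on both sides of those of 1CT-A and PLAUR was not called (log2 fold change -0.09, SE 0.11), although it was without 1CT replicate 3 (-0.23), and over all libraries left out in turn the value ran from -0.23 to 0.01. SERPINE2, protease nexin 1, which inhibits urokinase and thrombin, had 326, 316 and 297 CPM in 1CT and 96.5, 95.6 and 100.6 CPM in 1CT-A. Its groups were tight and far apart (log2 fold change -1.72, SE 0.07). SERPINB2, plasminogen activator inhibitor 2, had 0 to 6 counts in a library. Plasminogen itself (PLG), which is made mainly in the liver, had 0 counts in every library.

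The 1CT libraries differed more among themselves than the 1CT-A libraries for most members. Of the 21 members with a mean of at least 10 CPM in either line, 17 (81.0%) had the larger coefficient of variation in 1CT, where 69.0% of all 8667 genes at that level did. The median coefficient of variation of these members was 16.3% in 1CT and 5.78% in 1CT-A, and that of all such genes was 8.95% and 5.99%. Between the highest and lowest 1CT library PLAU differed 3.50-fold, ADAM19 2.84-fold, ADAM9 2.64-fold, MMP2 2.51-fold and MMP14 2.25-fold. Replicate 2 was the highest for PLAU, ADAM19 and MMP2, and replicate 1 for ADAM9 and MMP14. Replicate 3 was the lowest 1CT library for 12 of the 21 members, where it was the lowest for 41.6% of all such genes. The other 4 members had the larger coefficient of variation in 1CT-A. They were TIMP3, with 80.2% in 1CT-A at 2 to 16 counts against 16.3% in 1CT, and by smaller margins MMP19, MMP24 and ADAM17.

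**Figure D3:**
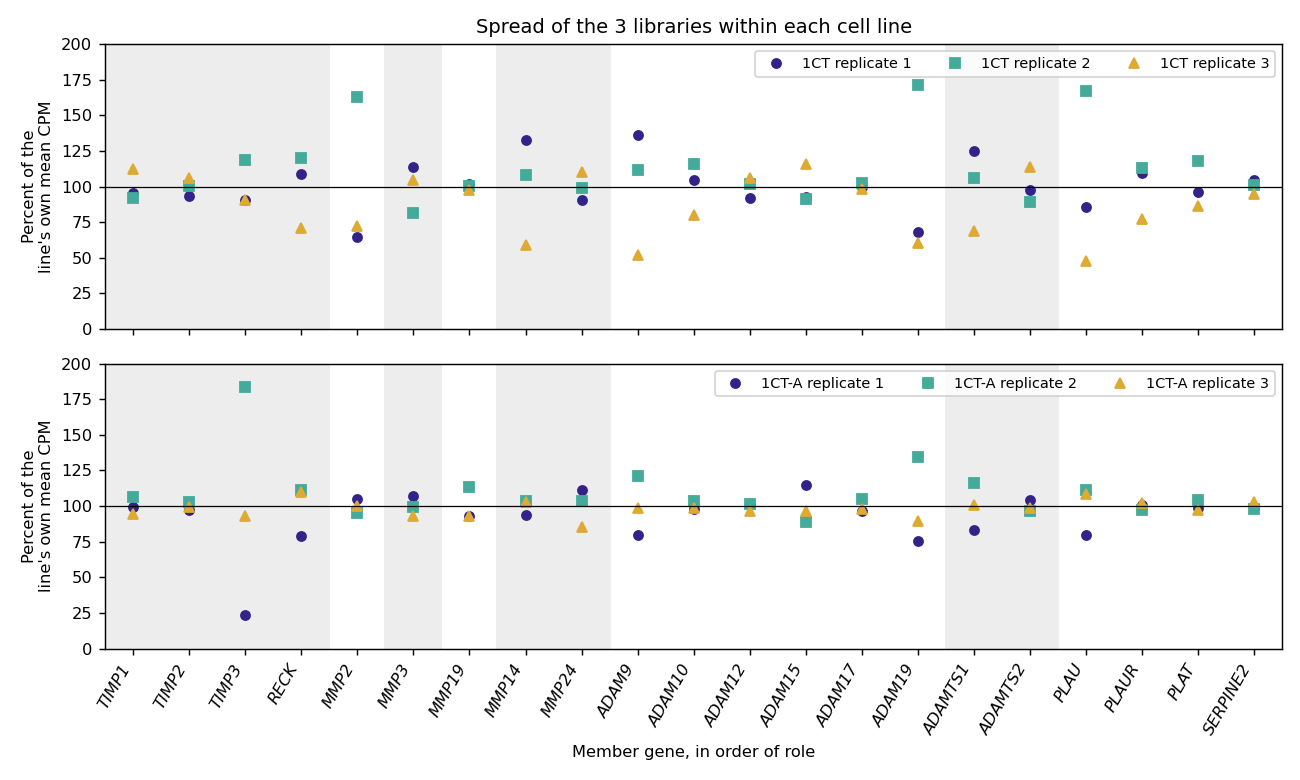
Each library's CPM as a percentage of the mean of its own cell line, for the 21 members with a mean of at least 10 CPM in either line, with 1CT above and 1CT-A below. Points at 100 percent equal the line's mean. The 1CT points of MMP2, ADAM9, ADAM19 and PLAU are spread widely and those of 1CT-A are mostly close to 100 percent, with TIMP3 the widest.

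The wider network of 85 related genes, none of them members, was read in the same fit. There 33 genes were tested, of which 3 were higher and 23 lower in 1CT-A (78.8%, where 51.0% of all genes were called). Their median log2 fold change was -0.70. By direction, 9.09% of them were called higher and 69.7% lower, where the shares over all genes were 25.0% and 26.0%. The network lists were made with earlier results of these data known. Nothing is therefore read from these shares or from the counts by list below. For 36 genes no library of either line went above 3 counts. No gene among 7 other MMPs could be tested, and of 14 other ADAMs the single one tested, ADAM23, was lower.

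Among 17 other ADAMTS and ADAMTS-like genes 6 were tested, with 2 higher and 3 lower. ADAMTS8 had 3, 3 and 5 counts in 1CT and 188, 266 and 235 in 1CT-A, a log2 fold change of 5.37 (SE 0.27, edgeR adjusted p = 7.8e-09). This inhibitor of new vessel growth was thus near the limit of detection in every 1CT library. ADAMTS19 rose from 1.42 ± 1.39 to 10.1 ± 0.902 CPM (SD, n = 3), with a log2 fold change of 2.78 (SE 0.37, edgeR adjusted p = 3.84e-05) and a range of 2.40 to 3.97 when 1 library was left out, with the highest value without 1CT replicate 2. ADAMTSL1, a secreted protein without protease activity, fell from 46.1 ± 2.16 to 11.1 ± 1.03 CPM (SD, n = 3, log2 fold change -2.08, SE 0.11, edgeR adjusted p = 9.54e-09).

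Of 22 plasminogen receptors, inhibitors and related serine proteases 11 were tested, with 1 higher and 8 lower. ANXA2 and S100A10, the annexin A2 complex that binds plasminogen and tissue plasminogen activator at the cell surface, were lower by log2 fold changes of -0.90 (SE 0.06, edgeR adjusted p = 1.06e-07) and -0.63 (SE 0.08, edgeR adjusted p = 1.81e-05). LRP1, the receptor that takes up complexes of proteases and serpins, was lower too (log2 fold change -1.10, SE 0.09, edgeR adjusted p = 5.12e-07), as was SERPINB8, an intracellular serpin (-0.99, SE 0.17, edgeR adjusted p = 0.000341). The gene that rose was TFPI2, an inhibitor of plasmin and other serine proteases, from 34.2 ± 6.66 to 96.8 ± 5.93 CPM (SD, n = 3, log2 fold change 1.46, SE 0.12, edgeR adjusted p = 4.59e-07).

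Of 18 activators and partners of metalloproteinases 12 were tested, of which 9 were lower and 3 were not called. FURIN, the convertase that removes the propeptide of membrane-type MMPs, ADAMs and ADAMTS enzymes, had 132, 133 and 155 CPM in 1CT and 58.3, 55.6 and 57.3 CPM in 1CT-A (log2 fold change -1.33, SE 0.09, edgeR adjusted p = 8.27e-08). SPOCK1, a matrix proteoglycan of the testican family, fell furthest of the 9, from 21.8 ± 0.712 to 2.79 ± 0.104 CPM (SD, n = 3, 8.02-fold lower, edgeR adjusted p = 5.03e-09). RHBDF1, an inactive rhomboid that carries ADAM17 to the cell surface, and THBS2, a thrombospondin that aids the uptake of MMP2, were lower by -1.29 (SE 0.13, edgeR adjusted p = 3.14e-06) and -1.44 (SE 0.16, edgeR adjusted p = 6.74e-06) on the log2 scale. BSG, the MMP inducer basigin, was lower by a log2 fold change of -0.26 (SE 0.09, edgeR adjusted p = 0.0323), and the adjusted p ran from 0.0225 to 0.131 over the alternatives. BMP1, the procollagen C-proteinase, was 1 of 2 genes lower among 3 tested of 7 astacins and their enhancers (log2 fold change -1.07, SE 0.14, edgeR adjusted p = 3e-05).

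**Figure D4:**
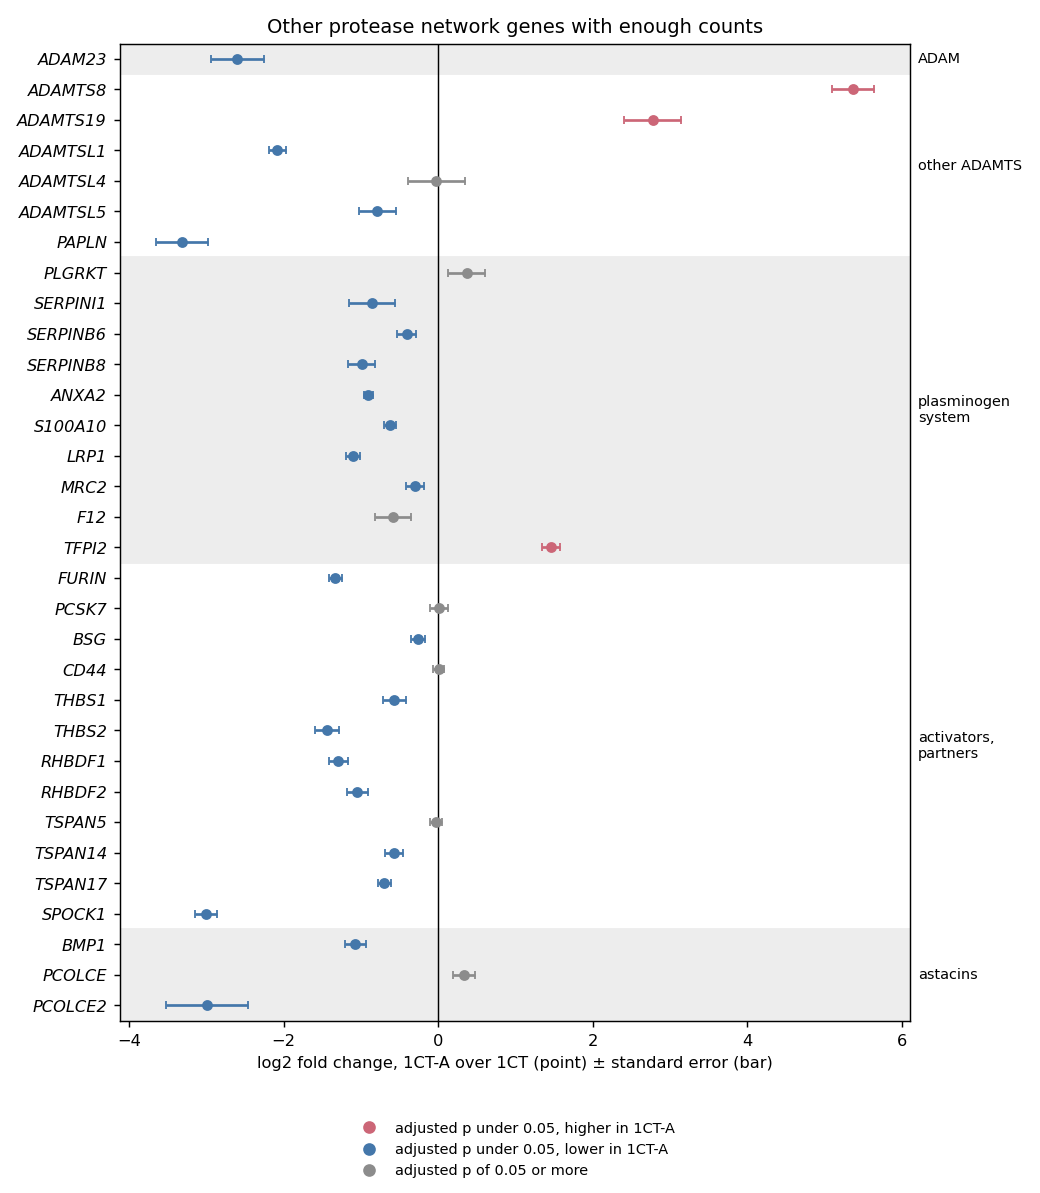
Log2 fold change of 1CT-A over 1CT for 32 of the 33 tested genes of the wider protease network, in order of list, with bars of 1 standard error and colour for the call. Of these, 22 lie left of 0 as lower in 1CT-A and 3, ADAMTS8, ADAMTS19 and TFPI2, right of it as higher.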

How the data were processed

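The submitters' processing notes name Bowtie2, edgeR and the genome build hg19. The counting tool, annotation and strand are not given in the sources used here. The authors deposited 1 table of raw counts per library, whole numbers per gene symbol, not normalized and not pooled. Libraries were made with the QuantSeq 3′ kit and sequenced on an Illumina NextSeq. The 286 symbols entered repeatedly were summed, and no member was among them.

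The test was edgeR 4.0.16 in R 4.3.3: TMM, filterByExpr with a minimum count of 10, a quasi-likelihood test between the lines, and Benjamini-Hochberg adjustment over 12514 genes. CPM used library totals. Alternatives were other scalings and filters, DESeq2 1.42.0, limma-voom with limma 3.58.1, a replicate block, an adjusted p under 0.01, and each library left out. On simulated counts of 12344 genes the test recovered 74% of genes raised by a log2 fold of 0.58 and 96% at 1. It called 0.0905% of unchanged genes. Every simulated gene had the same dispersion, 0.00733, in both lines. The members with at least 10 CPM had a median coefficient of variation of 16.3% in 1CT and 5.78% in 1CT-A. The simulated rates therefore do not carry over to the members.

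Members and gene lists were chosen with earlier results of these data known. Members with at least 10 CPM in either line are given by library. Each network list names up to 4 called genes with the largest changes at that level, plus FURIN, BSG, ANXA2 and S100A10, and 1 further gene is not reported here. Promoters came from RefSeq on GRCh38.p14 and overlaps from GENCODE release 44, both by gene symbol. Protein sequences were not analysed here.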

Additional observations from a re-analysis of the deposited data

How the results depend on the processing

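The number of members called was 15 to 24 and of network genes 21 to 32 over the alternatives, against 19 and 26 in the main test. The high ends came with no filter on low counts, where 5 members were added. Over all genes 4671 to 7238 were called, against 6388. With each library left out in turn, 17 to 20 members, 23 to 27 network genes and 5364 to 6551 genes overall were called. Of the tested genes, 23 of 29 members and 26 of 33 network genes kept their side of the threshold under every alternative in which they could be tested, and no called gene changed sign. With at least 10 counts in every library, 5 members (TIMP3, ADAM8, ADAMTS5, ADAMTS7 and ADAMTS9) and 6 network genes could not be tested, which is why 4 called members were missing there, and ADAMTS9 could not be tested without 1CT-A replicate 1 or 3 either. The members that did not keep it were TIMP4, MMP14, ADAM9, ADAMTS1, ADAMTS5 and PLAUR. MMP14, ADAM9 and ADAMTS1 were called with no filter, where their log2 fold changes moved little and their SEs were smaller. The SE fell from 0.192 to 0.095 for MMP14, from 0.244 to 0.0865 for ADAM9 and from 0.166 to 0.0842 for ADAMTS1. These 3 calls thus came with smaller SEs and not with larger differences. The cause of the smaller SEs was not tested.

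With a block for the replicate number, 6091 genes, 19 members and 26 network genes were called, and the 19 and 26 were the same genes as without it. Across 8224 genes, same-numbered libraries deviated together weakly or not at all, with correlations of -0.161 to 0.22. The largest correlation, 0.345, was between 1CT replicate 3 and 1CT-A replicate 1. Since 1 of 3 1CT libraries correlated best with its own number, the numbers were not taken as pairs. Single members differed in this. With the block the SE fell from 0.33 to 0.196 for ADAM19 and from 0.282 to 0.216 for PLAU, and rose from 0.0858 to 0.094 for TIMP1. Depth limits the 12 members below the filter, for which a difference under a few counts was not detectable.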

Other observations

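MMP7, MMP20, MMP27, MMP8, MMP10, MMP1, MMP3, MMP12 and MMP13 follow in this order among the MMP genes of chromosome 11 in the GENCODE annotation. In these libraries MMP3 was the gene among them with steady counts, 148 to 212 in 1CT and 265 to 279 in 1CT-A. MMP1 followed with 0 to 5 and 8 to 21 counts, and the others had at most 5 counts in any library.

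Several network genes below 10 CPM were picked here after their values were seen. PAPLN, a matrix protein related to the ADAMTS family, had 71, 82 and 86 counts in 1CT and 3, 18 and 14 in 1CT-A. ADAM33 had 5, 12 and 11 counts in 1CT and 0 in every 1CT-A library. ADAMTS14 and ADAMTS15 went the other way, with 1 to 4 and 2 to 5 counts in 1CT against 8 to 16 in 1CT-A for both. PCOLCE2, an enhancer of procollagen C-proteinase, had 21, 19 and 16 counts in 1CT and 4, 0 and 6 in 1CT-A.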
